A study of Homo sapiens with 4 samples.

Results

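Introns of 20 to 90 bases were described in ribosome profiling of 2 established human cell lines, K562 and HepG2. An intron entered the set when its annotated length lay between 20 and 90 bases and the deposited tables assigned it to 1 gene, which left 8216 introns of 350863 annotated junctions, in 4826 genes. The lengths come from the annotation, so no read count took part in the choice. K562 is an erythroleukaemia line and HepG2 a line from a liver tumour, neither treated nor altered according to the labels. Cells were lysed with cycloheximide, which holds ribosomes on the message, RNase I digested unprotected RNA, pieces of about 29 nt were kept and ribosomal RNA was depleted. Each line was represented by 2 samples, and 1 table per line holds their pooled junction counts, so no spread between samples exists, no test was made, and every interval given is an exact 95% interval that covers counting error only. Reads of such libraries are not independent molecules, and fewer cells and less RNA per cell cannot be told apart in a bulk sample.

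A junction read is a footprint whose ribosome sat over the joint between 2 exons of a spliced message. Removal of an intron needs room for a donor site, a branch point and an acceptor, and vertebrate introns shorter than the usual lower bound are spliced poorly or in special ways. The 26-base segment of XBP1 is the known exception in human cells: it is cut out in the cytoplasm by ERN1, an endoribonuclease of the endoplasmic reticulum stress response, and the ends are joined by the tRNA ligase RTCB. The erythroid transcription factor gene GATA1 had 776 junction reads in K562 against 0 in HepG2, the serum albumin gene ALB had 41 in K562 against 349063 in HepG2, and MTAP, a gene deleted in K562, had 0 in K562 against 249 in HepG2. These counts go with the line labels. K562 held 10118105 mapped junction reads, 7487508 of them unique (74.0%), and HepG2 held 12001095, 9927809 of them unique (82.7%).

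The sequences of introns that carry the results are given first, read from the GENCODE release 29 transcripts on GRCh38, since that annotation matched 8183 of the 8216 introns (99.6%). In the first set, the capitals mark the intron and the lower case letters the 15 exon bases on each side. XBP1 is listed at 2 positions 2 bases apart, chr22:28796122-28796147 and chr22:28796124-28796149 on the minus strand, and both leave the same spliced letters. HNRNPH1 is at chr5:179617933-179617988 (minus), APOA2 at chr1:161222454-161222507 (minus), VIM at chr10:17233683-17233769 (plus), CIRBP at chr19:1271247-1271328 (plus) and FDPS at chr1:155309966-155310042 (plus), all within coding sequence.
XBP1 listed first: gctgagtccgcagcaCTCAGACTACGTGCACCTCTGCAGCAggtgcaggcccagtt
XBP1 listed second: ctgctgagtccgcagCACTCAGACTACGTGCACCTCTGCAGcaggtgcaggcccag
HNRNPH1: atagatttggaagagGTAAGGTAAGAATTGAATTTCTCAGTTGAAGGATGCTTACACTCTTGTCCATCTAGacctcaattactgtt
APOA2: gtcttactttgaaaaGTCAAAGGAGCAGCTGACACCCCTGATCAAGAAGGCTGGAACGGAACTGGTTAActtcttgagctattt
VIM: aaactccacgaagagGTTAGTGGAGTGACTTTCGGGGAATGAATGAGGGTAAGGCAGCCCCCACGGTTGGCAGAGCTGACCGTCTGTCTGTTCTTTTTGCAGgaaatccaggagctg
CIRBP: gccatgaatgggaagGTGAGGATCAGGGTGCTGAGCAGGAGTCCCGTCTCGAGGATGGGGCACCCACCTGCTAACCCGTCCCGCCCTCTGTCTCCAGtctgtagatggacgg
FDPS: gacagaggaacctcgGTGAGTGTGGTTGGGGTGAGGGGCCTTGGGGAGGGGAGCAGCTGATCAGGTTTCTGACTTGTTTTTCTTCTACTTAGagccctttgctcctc
The HNRNPH1, VIM, CIRBP and FDPS introns start with GT and end with AG. The APOA2 segment starts with GT and ends with AA, and the XBP1 segment starts with CT or CA and ends with CA or AG, depending on which listed position is read. In the second set the 30 bases are the spliced message that a footprint would carry, with the downstream exon in capitals. U2SURP and SLC20A1 are shown for their shares at a shared splice site, NOL7, CAND1 and STAP2 because they stand apart from the rest of their genes, RPS6KA3 for its difference between the lines and CALR because it holds the most reads.
U2SURP, 90-base intron, chr3:143021383-143021472 (plus): gaaatagatcatctgTTCTTGATGATTACG
U2SURP, 87-base intron, chr3:143021386-143021472 (plus): atagatcatctggtgTTCTTGATGATTACG
NOL7, chr6:13620330-13620407 (plus): ccaacaggactactgTAAATAAGTTCCTGT
CAND1, chr12:67297664-67297747 (plus): ctggtcatagaatagGTGAATACCTTGAGA
STAP2, chr19:4327227-4327315 (minus): gatgtggaacagccgTTCTCTTGCACCTCC
SLC20A1, chr2:112652799-112652888 (plus): atactggagcaccgtGGCTGAAATCTCCTA
RPS6KA3, chrX:20176353-20176433 (minus): acgatagactggaatAAACTGTATAGAAGA
CALR, chr19:12940453-12940540 (plus): gactccaagcctgagGACTGGGACAAGCCC

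Short introns took a larger share of the junction reads in K562 than in HepG2. They held 232006 of 7222089 unique single-gene junction reads in K562, a share of 3.21% (3.20 to 3.23), and 259725 of 9607307 in HepG2, a share of 2.70% (2.69 to 2.71). The ratio of shares, K562 over HepG2, was 1.19 (1.18 to 1.19), and short introns make up 2.38% of the single-gene junctions listed. When the total was limited to reads of genes that have a short intron, the ratio was 1.05. Without the 10 introns with the most reads it was 1.15.

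The difference in share was not the same at every length. Introns of 70 to 79 bases held 0.781% of reads in K562 against 0.585% in HepG2, a ratio of 1.34 (1.32 to 1.35). Introns of 80 to 90 bases held 2.42% in K562 against 2.10% in HepG2, a ratio of 1.15 (1.14 to 1.16). Introns of 50 to 69 bases had 804 reads in K562 against 1482 in HepG2, a ratio of shares of 0.722 (0.661 to 0.787). This rests on 2 introns, those of ALDH3A2 and HNRNPH1 described below: without them the class held 781 reads in K562 against 1000 in HepG2, a ratio of 1.04 (0.945 to 1.14). Those of 20 to 49 bases held 50 reads in K562 against 34 in HepG2. Just above the length limit, introns of 91 to 120 bases held 4.30% of reads in K562 against 4.38% in HepG2, a ratio of 0.980 (0.975 to 0.984).

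Detection was low below 60 bases, near 50% from 70 to 90 bases and lower again among longer junctions. At 1 or more unique reads, 3639 of 8216 (44.3%) were detected in K562 and 3822 (46.5%) in HepG2, beside 117498 (34.99%) in K562 and 119629 (35.6%) in HepG2 of 335817 junctions over 90 bases. Both lines had reads at 3163, K562 alone at 476, HepG2 alone at 659 and neither at 3918. Of the introns seen in 1 line only, 200 in K562 against 225 in HepG2 had a single read, and 44 in K562 against 100 in HepG2 had 20 or more. Either line had reads at 4298 short introns and at 141758 junctions over 90 bases. Of the latter, 22129 were seen in K562 alone and 24260 in HepG2 alone, with 20 or more reads at 1712 and 3525. A lean toward HepG2 at 20 or more reads is thus shared by longer junctions. When HepG2 reads were thinned to the K562 total, 3693 short introns were detected in HepG2. The counts seen in 1 line only were then 542 in K562 against 596 in HepG2, and longer junctions were not counted after thinning.

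**Figure D1:**
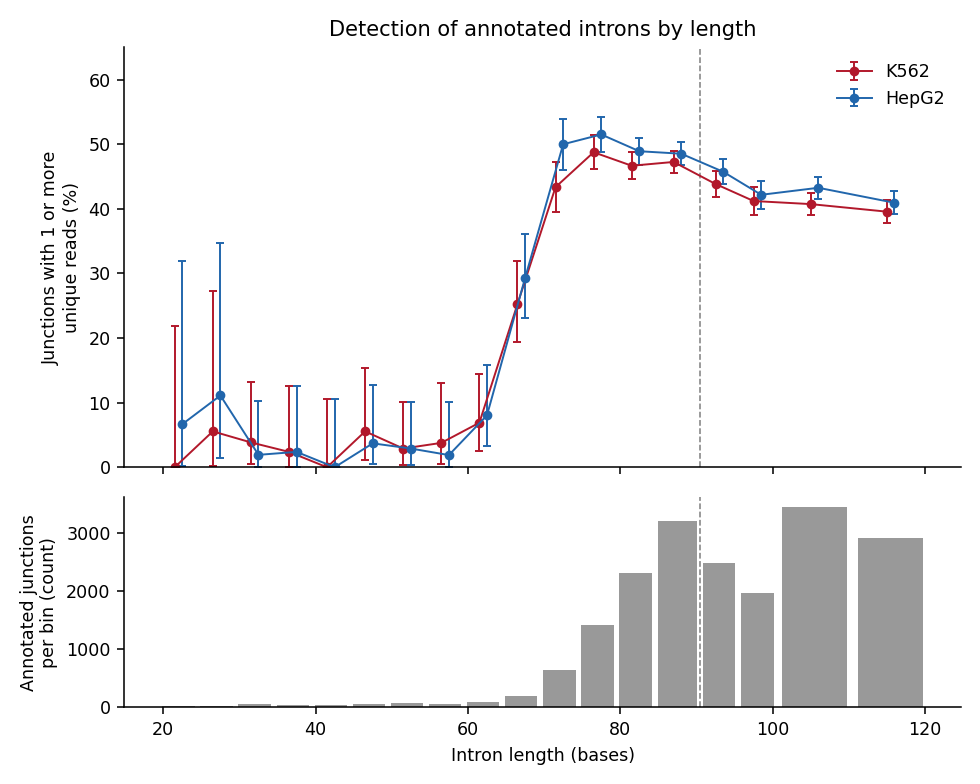
Detection of annotated introns by length. The upper panel gives the percent of junctions with 1 or more unique reads in each length bin (K562 red, HepG2 blue, bars are exact 95% intervals) and the lower panel the number of junctions in the bin, with the dashed line at the 90-base limit. Detection lies at or below 11.1% in both lines under 65 bases and between 43.4% and 51.5% from 70 to 90 bases.

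The step in detection lay between 60 and 75 bases. Of the 214 introns of 20 to 49 bases, 11 had a read in either line (5.14%), against 19.9% of those of 50 to 69 bases, 56.8% of those of 70 to 79 and 54.9% of those of 80 to 90. Introns of 65 to 69 bases were detected at 25.3% in K562 against 29.3% in HepG2, and those of 75 to 79 bases at 48.8% in K562 against 51.5% in HepG2. No step was seen at the 90-base limit itself: introns of 88, 89 and 90 bases were detected at 53.5%, 54.5% and 56.4%, and those of 91, 92 and 93 bases at 55.0%, 52.8% and 53.5%.

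The listed introns that were not seen differ in their letters from those that were. Letters could be read for 2515 introns, because another transcript keeps the intron. Of these, 27 of 125 under 50 bases start with GT and end with AG (21.6%), against 64.5% of those of 50 to 69 bases and 95.3% of those of 70 to 90. Among introns with letters, 97.8% of the 1302 detected ones have these ends, against 79.3% of the 1213 without a read. Lengths of coding introns under 50 bases are multiples of 3 in 53 of 90 cases (58.9%), against 34.5% over all coding short introns. The 2515 introns are 30.6% of the set, so base content of the introns themselves was not compared.

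The flanking exons were available for 99.8% of coding short introns. The 30 exon bases around the joint had a median GC content of 56.7%, against 53.3% for coding introns of 91 to 150 bases and 50% for longer ones. In 1 chosen transcript per coding gene, the next intron was also short after 748 of 5284 short introns (14.2%). Over the chosen transcripts of all these genes, also those without a short intron, 3.27% of 181508 introns are short. Genes that are rich in short introns and clustering within a transcript were not told apart here. Position was read for introns with coding bases on both sides in the chosen transcript, which left 5819 short ones. The transcript's first intron made up 4.40% of these, 4.42% of such introns of 91 to 120 bases and 7.15% of longer ones. The footprint level at a short intron, relative to the other junctions of its transcript, had a median of 0.694 in K562 against 0.707 in HepG2, and at junctions over 90 bases of 0.701 in K562 against 0.734 in HepG2. For introns of 50 to 69 bases the median was 0.331 in K562 (30 introns) and 0.433 in HepG2 (39 introns), and for those of 20 to 49 bases it was 0 in both lines, with no read at any of the 10 introns compared in K562 or the 13 in HepG2.

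Short introns are spread unevenly over the chromosomes. They were 5.05% of the single-gene junctions of chromosome 19 (992 introns), 4.44% of chromosome 16 and 3.34% of chromosome 17, against 0.886% of chromosome 18 and 1.05% of chromosome 21. Chromosome 19 held 18.96% of short-intron reads in K562 against 19.7% in HepG2. With the scaling used for the comparison of the lines (edgeR TMM factors), the K562 over HepG2 ratio of short-intron reads was 0.243 on chromosome 20, beside 0.423 for all junctions of that chromosome. It was 0.401 on chromosome 14, beside 0.450 for all its junctions, and 2.51 on chromosome 21, beside 1.06 for all its junctions. With total-read scaling the short-intron ratios were 0.325 on chromosome 20, 0.537 on chromosome 14 and 3.36 on chromosome 21.

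**Figure D2:**
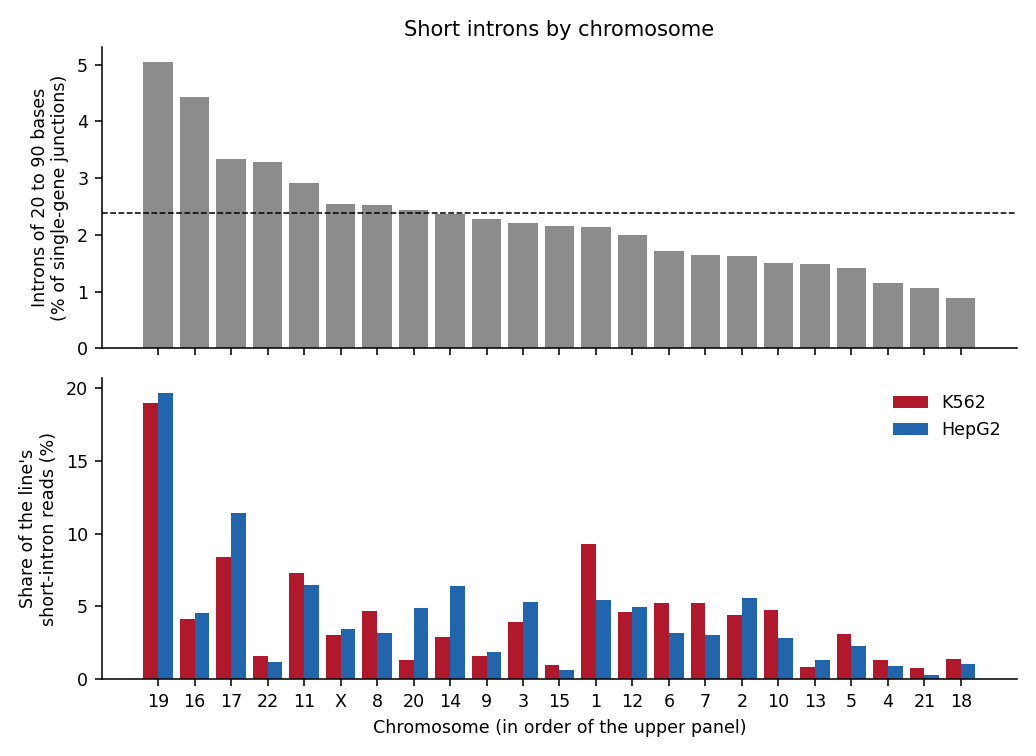
Short introns by chromosome. The upper panel gives introns of 20 to 90 bases as a percent of single-gene junctions (dashed line 2.38%, all chromosomes) and the lower panel the share of each line's short-intron reads on that chromosome (K562 red, HepG2 blue); chromosome Y is not drawn. Chromosome 19 leads both panels, and chromosomes 20 and 14 show larger shares in HepG2.

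Nearly all reads came from introns between coding exons. Coding introns were 6296 of the set (76.6%, against 61.6% of other junctions) and held 98.5% of short-intron reads in K562 against 99.5% in HepG2. The 302 introns in 5′ untranslated regions held 0.670% in K562 against 0.332% in HepG2, the 162 in 3′ untranslated regions 0.0203% in K562 against 0.124% in HepG2, and the 1423 in noncoding transcripts 0.852% in K562 against 0.0732% in HepG2. The noncoding share in K562 rests largely on 1 intron, the 89-base one of ENSG00000227706, a long intergenic noncoding RNA at chr6:67888822-67888910, with 1707 reads in K562 against 0 in HepG2.

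The most read short introns lie in genes of protein folding, ribosomes, RNA processing and energy metabolism. The 10 introns with the most reads held 14.5% of short-intron reads in K562 against 12.01% in HepG2. The 88-base intron of CALR, an endoplasmic reticulum calcium-binding chaperone, had the most, 2587 reads in K562 against 8566 in HepG2. HSPA8, a cytosolic chaperone, had 4188 in K562 against 2342 in HepG2 at its 87-base intron. The 75-base intron of HNRNPA2B1, an RNA-binding protein of messenger RNA processing, had 3877 in K562 against 2511 in HepG2. Large ribosomal subunit genes followed, RPL8 with 4541 in K562 against 1357 in HepG2 and RPL5 with 4210 in K562 against 1361 in HepG2. ATP5MK, a subunit of mitochondrial ATP synthase, had 3110 in K562 against 1583 in HepG2. The RNA helicase DDX5 had nearly equal counts, 2267 in K562 against 2191 in HepG2. GAPDH of glycolysis had 1613 in K562 against 2233 in HepG2, the peroxide-reducing PRDX2 had 1693 in K562 against 2026 in HepG2, and the arginine methyltransferase PRMT1 had 773 in K562 against 2884 in HepG2. Of the mapped reads, 50.1% in K562 against 56.6% in HepG2 were unique at the HSPA8 intron, 38.5% in K562 against 31.2% in HepG2 at that of RPL5 and 42.7% in K562 against 82.9% in HepG2 at that of PRMT1.

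Between the lines, each intron with 20 or more reads was compared by the ratio K562 over HepG2, scaled with edgeR TMM factors from gene sums, and called where the whole interval lay past 2-fold. Of 2209 short introns, 170 (7.70%) passed this limit on the K562 side and 370 (16.7%) on the HepG2 side, while of all 68942 junctions tested 10.3% lay past it on the K562 side and 17.6% on the HepG2 side. The median log2 ratio was -0.14 for short introns and -0.13 for all junctions. Scaled by total reads the split was 278 higher in K562 and 281 higher in HepG2, with the median log2 ratio of all junctions at 0.29. Of 18 introns in 5′ untranslated regions that were compared, 6 passed 2-fold on the K562 side and 1 on the HepG2 side, with a median log2 ratio of 1.24. Of 3041 other junctions of such regions, 25.7% passed on the K562 side and 10.5% on the HepG2 side, with a median of 0.87. The lean toward K562 is thus shared by junctions of such regions at other lengths.

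**Figure D3:**
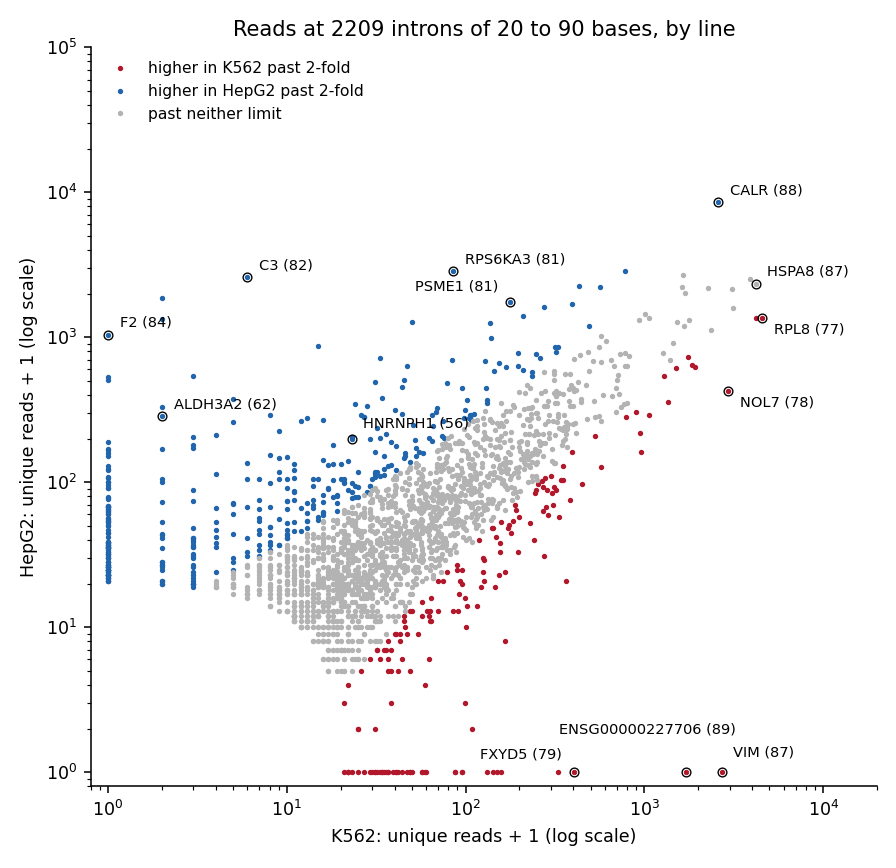
Unique reads plus 1 at each of the 2209 short introns compared, HepG2 against K562, both on log scales, with introns named by gene and length in bases. Red points are higher in K562 and blue ones higher in HepG2 by an interval past 2-fold. VIM and ENSG00000227706 lie at the lower right with no HepG2 read, and F2, C3 and RPS6KA3 lie toward the upper left.

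On the K562 side, the 6 introns with the largest differences had no read in HepG2, and ENSG00000227706 (above) is one of them. Where a table held 0 reads, a floor of 3 reads in that table was used for the ratio, and the lower bound is that of the interval. The 87-base intron of VIM, the intermediate filament protein vimentin, had 2706 reads in K562 against 0 in HepG2. That is 898-fold higher with the floor and at least 730-fold by the interval. FXYD5, a regulator of the sodium pump, had 402 in K562 against 0 in HepG2, at least 133-fold higher, and CD81, a tetraspanin, had 328 in K562 against 0 in HepG2, at least 109-fold higher. Of introns in 5′ untranslated regions, PTPRC, the leukocyte common phosphatase, had 156 in K562 against 0 in HepG2, and STON2, an endocytic adaptor, 148 in K562 against 0 in HepG2. The rest of VIM had 20000 reads in K562 against 9 in HepG2, and that of FXYD5 2445 in K562 against 2 in HepG2. RPL8, at 3.33 (3.13 to 3.54), and RPL5, at 3.08 (2.90 to 3.28), were the most read introns called higher in K562; with total-read scaling those of HSPA8, at 1.25, and ATP5MK, at 1.39 on the log2 scale, passed too.

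On the HepG2 side, 5 of the 6 introns with the largest differences lie in genes of plasma proteins. The 82-base intron of complement C3 had 5 reads in K562 against 2610 in HepG2, a ratio of 0.00191 (0.000619 to 0.00446). Its 83-base intron had 1 in K562 against 1874 in HepG2 (ratio 0.000531, interval 1.34e-05 to 0.00296), and its 84-base intron 1 in K562 against 1332 in HepG2 (0.000747, interval 1.89e-05 to 0.00417). F2, which encodes prothrombin, had 0 in K562 against 1042 in HepG2 at its 84-base intron. With the floor that is 349-fold lower in K562, and at least 283-fold by the interval. VTN, the plasma adhesion protein vitronectin, had 0 in K562 against 529 in HepG2, and TM4SF5 had 0 in K562 against 506 in HepG2. CALR, with a ratio of 0.301 (0.288 to 0.314), and PRMT1, with 0.267 (0.246 to 0.289), were the most read introns called higher in HepG2. With all mapped reads the PRMT1 ratio no longer passed, at -0.97 on the log2 scale. RPS6KA3, a growth-factor-responsive kinase, was picked after its values were seen: its 81-base intron had 84 reads in K562 against 2872 in HepG2, a ratio of 0.0291 (0.0231 to 0.0362).

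The gene lists differed in their share of short-intron reads. Their counts of introns past 2-fold stand beside 10.3% of all junctions tested on the K562 side and 17.6% on the HepG2 side. The cytosolic ribosomal protein list takes symbols that start with RPL or RPS, so it also holds the kinase gene RPS6KA3. The list held 15303 reads in K562 against 9182 in HepG2, or 6.60% of short-intron reads in K562 against 3.54% in HepG2. Of 9 introns compared 4 were higher in K562 against 1 in HepG2, that of RPS6KA3, with 84 reads in K562 against 2872 in HepG2. As a share of the junction reads of the list's genes, short introns held 3.45% in K562 against 3.69% in HepG2. These shares count RPS6KA3 and were not computed without it. Proteasome genes held 1.33% in K562 against 2.79% in HepG2, with 2 of 18 higher in K562 and 5 higher in HepG2, and short introns took 2.79% of their genes' junction reads in K562 against 6.41% in HepG2. In PSME1, a proteasome activator subunit gene, the 88-base intron had 392 in K562 against 1708 in HepG2, the 81-base intron 176 in K562 against 1757 in HepG2 and the 78-base intron 207 in K562 against 1402 in HepG2, all higher in HepG2. The proteasome list held 3082 reads in K562 against 7257 in HepG2, and most of the HepG2 reads lay at these PSME1 introns. They are 3 of the 5 introns called higher in HepG2, so the difference of the list rests largely on 1 gene. Plasma protein genes held 0.0328% in K562 against 3.03% in HepG2, with 0 of 11 higher in K562 and 8 higher in HepG2. Genes whose symbols start with APO, listed as apolipoproteins, held 51 reads in K562 against 1302 in HepG2. Nearly all lay at the 81-base intron of APOM, with 49 in K562 against 1266 in HepG2. Of 2 red cell and blood gene introns compared, both were higher in K562: VAV1 with 40 reads in K562 against 0 in HepG2, and LYL1 with 33 in K562 against 0 in HepG2. DNA replication genes held 1.49% in K562 against 1.61% in HepG2, and the sliding clamp gene PCNA was the only 1 of 18 introns called, with 564 reads in K562 against 2219 in HepG2; with total-read scaling the 88-base intron of MCM7, a helicase subunit gene, also passed, on the K562 side (1.59 on the log2 scale). Mitochondrial ribosomal protein genes had 16 introns compared and none called, and tRNA synthetases 1 of 24 higher in K562, LARS1 with 302 reads in K562 against 83 in HepG2. Genes whose symbols start with TUB or ACT held 0.478% in K562 against 0.496% in HepG2, with 1 of 6 introns higher in K562, and ACTG1, a cytoplasmic actin gene, had 360 reads in K562 against 560 in HepG2. Genes whose symbols start with COL had 96 short introns, 27 of them detected, and of 6 compared 1 was higher in K562 and 3 higher in HepG2; COL15A1, a basement membrane collagen gene, had 86 in K562 against 0 in HepG2. Genes whose symbols start with KRT, listed as keratins, had 37 short introns, 3 of them detected. The pair in KRT10 was higher in K562, with 94 and 30 reads in K562 against 0 in HepG2. KRT23 was higher in HepG2, with 0 in K562 against 21 in HepG2. Of 11 introns of intron recognition genes compared, 1 was higher in K562 and none in HepG2; the 87-base intron of SF1, which binds the branch point, had 674 in K562 against 630 in HepG2, and the 83-base intron of U2AF2, the large subunit of the acceptor-binding factor, had 317 in K562 against 392 in HepG2. Of the XBP1 splicing list only the 86-base intron of DDX1, an RNA helicase gene, had enough reads, 438 in K562 against 358 in HepG2, and it did not pass. Of 61 short introns of zinc finger genes, 20 were detected in either line, with 63 reads in K562 against 62 in HepG2.

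**Figure D4:**
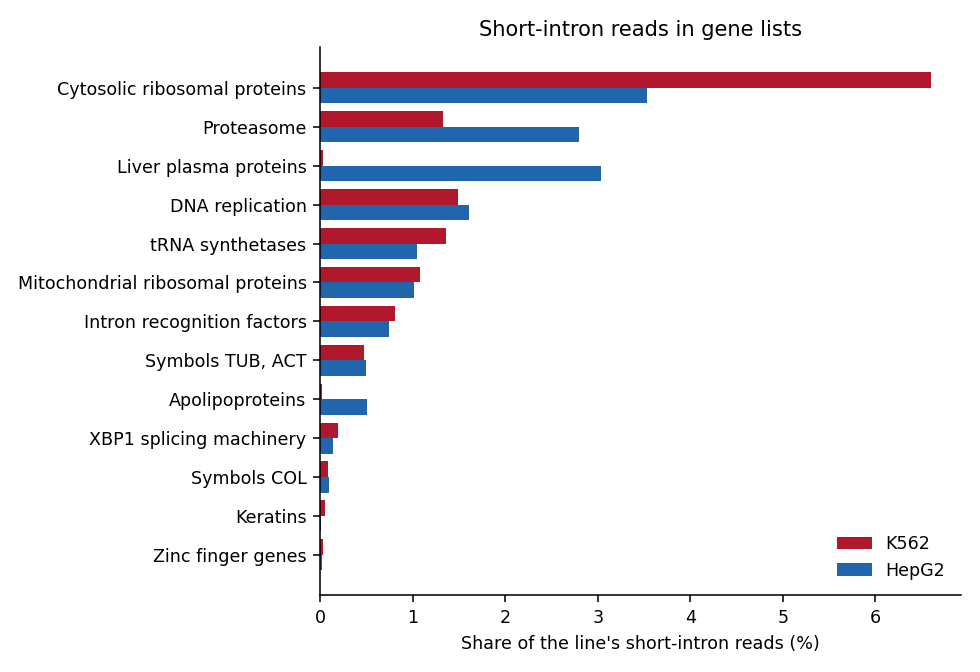
Share of each line's short-intron reads in gene lists with more than 100 such reads, K562 red above HepG2 blue. The cytosolic ribosomal protein list leads in K562 at 6.60%, and plasma protein genes reach 3.03% in HepG2 and 0.0328% in K562. That ribosomal list also goes by start of symbol (RPL or RPS) and includes the kinase gene RPS6KA3. The apolipoprotein (APO), keratin (KRT), proteasome (PSM), mitochondrial ribosomal (MRPL or MRPS) and zinc finger (ZNF) lists go by start of symbol too. Lists named by symbols hold every protein-coding gene with that start of symbol, such as ACTN4 and COLGALT1.

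By gene, 2091 genes had short-intron reads in K562 against 2155 in HepG2, 1821 of them in both. Of the genes with reads in 1 line only, 35 in K562 against 70 in HepG2 had 20 or more. COL7A1, a basement membrane collagen gene, has the most short introns, 34 of 120 junctions, and held 0 reads in K562 against 6 in HepG2. CPSF1, a subunit of the polyadenylation factor, had reads at all 24 of its short introns, 545 in K562 against 666 in HepG2, which were 61.0% of its reads in K562 against 62.3% in HepG2. LAMA5, a laminin chain, had 28 reads in K562 against 673 in HepG2 over 18 short introns, and LAMB2, another laminin chain, 55 in K562 against 1161 in HepG2 over 15. PIEZO1, a mechanically gated ion channel, had 156 in K562 against 110 in HepG2 over 17. CIRBP, whose 82-base intron is printed above, had 1954 in K562 against 687 in HepG2 over its 4 short introns, a ratio of 2.83 (2.59 to 3.09).

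To set an intron apart from its gene, its reads were compared with those at the other junctions of the same gene by an odds ratio. Of 2194 introns, 35 (1.60%) passed 2-fold on the K562 side and 44 (2.01%) on the HepG2 side, against 2.27% higher in K562 and 2.01% higher in HepG2 of all 68092 junctions. The share higher in K562 lies below that background and the share higher in HepG2 at it. The K562 background includes other junctions of 5′ untranslated regions (12.6%) and noncoding transcripts (10.7%). Among coding introns, 1.57% of short ones and 1.73% of other junctions were higher in K562. Introns of 91 to 120 bases stood at 1.46%, so the lower share is not particular to short introns. Of the 35, 17 were also higher in K562 between the lines, and of the 44, 21 were also higher in HepG2.

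Single introns did stand apart from their genes. The 78-base intron of NOL7, a nucleolar protein gene, held 2926 reads in K562 against 428 in HepG2, or 65.4% of the gene's junction reads in K562 against 18.2% in HepG2 (odds ratio 8.54, interval 7.55 to 9.66). Every other NOL7 intron with reads lay between 137 and 434 in K562 and between 146 and 530 in HepG2. The 84-base intron of CAND1, a cullin exchange factor gene, had 94 in K562 against 449 in HepG2, or 3.40% of the gene's junction reads in K562 against 18.1% in HepG2 (odds ratio 0.159, interval 0.1249 to 0.2005). The 89-base intron of STAP2, an adaptor protein gene, had 112 in K562 against 159 in HepG2, while its other junctions had 22 in K562 against 435 in HepG2 (odds ratio 13.9, interval 8.38 to 23.9), and K562 had no read at any of its first 6 introns. Against its neighbouring junctions, with 9 in K562 against 68 in HepG2, the odds ratio was 5.32 (2.50 to 12.6). SLC39A4, a zinc importer gene, had 0 in K562 against 190 in HepG2 at a 77-base intron and 0 in K562 against 68 in HepG2 at a 76-base one. K562 reads of SLC39A4 lay nearly all at its last 2 introns, with 97 and 343 in K562 and 90 and 80 in HepG2. The junctions next to these introns had no K562 read either, 0 in K562 against 78 in HepG2 beside the 77-base intron and 0 in K562 against 106 in HepG2 beside the 76-base one, so neither was set apart from its neighbours. EIF2S3, a translation initiation factor gene, had 170 in K562 against 136 in HepG2, with 2611 in K562 against 388 in HepG2 at the rest of its gene (odds ratio 0.186). NCAPH2, a condensin subunit gene, had 58 in K562 against 3 in HepG2, with an odds ratio of 19.7 (6.31 to 98.6). Against neighbouring junctions it was 12.6 (3.59 to 67.1). P3H3, a collagen prolyl hydroxylase gene, had 19 in K562 against 9 in HepG2 (odds ratio 13.1, interval 5.41 to 33.9). Its neighbouring junctions had 5 in K562 against 13 in HepG2, fewer than the minimum, and against them the odds ratio was 5.49 with an interval of 1.28 to 25.3, which did not pass. QPRT, an enzyme gene of NAD synthesis, had 32 in K562 against 201 in HepG2, and its call was lost against neighbouring junctions, which had 4 in K562 against 18 in HepG2. That of KRT10, a keratin gene with 94 in K562 against 0 in HepG2, was lost too, since its neighbouring junctions had 62 in K562 against 0 in HepG2.

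**Figure D5:**
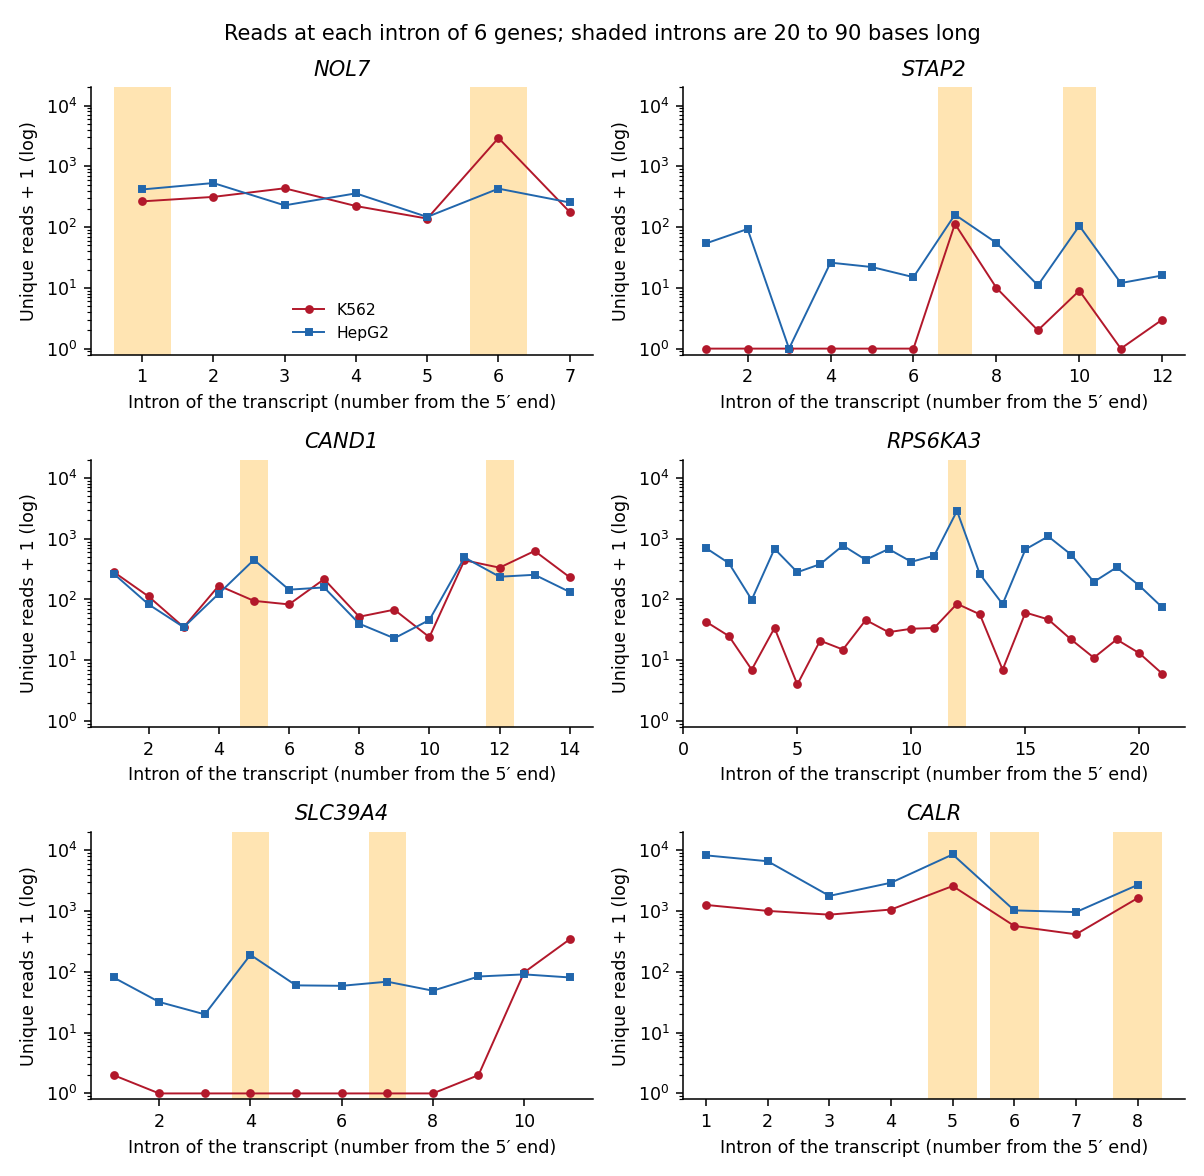
Unique reads plus 1, on a log scale, at each intron of 6 genes in order from the 5′ end (K562 red circles, HepG2 blue squares); shaded introns are 20 to 90 bases long. K562 peaks at the 78-base NOL7 intron with 2926 reads, and K562 reads of SLC39A4 start near the end of the gene.

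At a short intron of HNRNPH1 the direction depended on which reads were counted. The gene encodes a protein that binds runs of G in RNA. Its 56-base intron had 22 unique reads in K562 against 197 in HepG2 (odds ratio 0.142, interval 0.0872 to 0.222), but 3311 mapped reads in K562 against 2557 in HepG2, of which 0.664% were unique in K562 against 7.70% in HepG2. With all mapped reads the log2 ratio was 0.34 between the lines and 0.84 within the gene. The 84-base intron of the same gene had 818 unique reads in K562 against 745 in HepG2, nearly all of its mapped reads being unique.

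Where a short intron shares a donor or acceptor with another, its share of the reads at that site was compared. Of 489 intron-site pairs with 20 or more reads in each line, 5 (1.02%) differed by 20 points or more with intervals apart, against 2.32% of 42853 pairs over all junctions. Of the 489, 230 were over 90% in both lines and 199 under 10% in both. At the acceptor of FDPS, a farnesyl diphosphate synthase gene, the 77-base intron carried 34 of 127 in K562 (26.8%, interval 19.3 to 35.4) against 151 of 217 in HepG2 (69.6%, interval 63.0 to 75.6), the rest going to an intron of 1077 bases classed as 5′ untranslated. At the donor of SLC20A1, a phosphate transporter gene, the 90-base intron took 38 of 132 in K562 (28.8%) against 0 of 85 in HepG2, which allows up to 4.25%. The 90-base intron of MMS19, an iron-sulfur protein assembly gene, took 31 of 42 in K562 and 56 of 56 in HepG2. U2SURP, a spliceosome-associated gene, has introns of 90 and 87 bases whose donors lie 3 bases apart and that share an acceptor: the longer took 61 of 70 in K562 and 46 of 73 in HepG2, and the shorter 9 of 70 in K562 and 27 of 73 in HepG2, so these 2 of the 5 pairs are counterparts. The spliced letters of both forms are given above.

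The introns below 50 bases gave few reads. At the 26-base XBP1 segment, the excision that the stress response makes, there was 1 read in K562 against 1 in HepG2 at the first listed position and none at the other, of 377 junction reads of the gene in K562 against 2259 in HepG2. That is 0.265% (0.00672 to 1.47) in K562 and 0.0443% (0.00112 to 0.246) in HepG2. XBP1 itself had a ratio of 0.166 (0.149 to 0.185) over all its junctions. The alignment settings for gaps of this size were not given in the sources used here, nor was the counting rule. The 49-base intron of NDOR1, a flavin reductase gene, had no read in either line, in a gene with 2 reads in K562 against 1 in HepG2, and the 43-base intron of ESRP2, an epithelial splicing regulator gene, had none either, in a gene with 0 reads in K562 against 241 in HepG2. CIRBP, a cold-inducible RNA-binding protein gene, had 12 reads in K562 against 1 in HepG2 at its 45-base intron in the 5′ untranslated region, where 21.1% of 57 mapped reads were unique in K562. The most reads under 50 bases lay at a 36-base segment of the processed pseudogene ENSG00000241251, 33 in K562 against 27 in HepG2, where 27.7% of mapped reads in K562 against 52.9% in HepG2 were unique. The 54-base segment of APOA2, an apolipoprotein gene, had 0 in K562 against 22 in HepG2, beside 11 in K562 against 47320 in HepG2 at the rest of the gene. Of introns of 50 to 69 bases, named after their values were seen, ALDH3A2, a fatty aldehyde dehydrogenase gene, had 1 read in K562 against 285 in HepG2 at a 62-base intron in its 3′ untranslated region, LAMA5 had 2 in K562 against 87 in HepG2 at a 67-base intron, and BOP1, a ribosome biogenesis gene, had 112 in K562 against 62 in HepG2 at a 69-base intron. SCRIB, a cell polarity gene, had 31 in K562 against 116 in HepG2 at a 68-base intron (ratio 0.266, interval 0.173 to 0.398), and UCKL1, a uridine kinase-like gene, 24 in K562 against 78 in HepG2 at a 66-base one (ratio 0.306, interval 0.185 to 0.489); neither passed with total-read scaling. ECHDC2 had 0 in K562 against 62 in HepG2 at a 69-base intron. NDUFS7, a subunit gene of respiratory complex I, had 116 in K562 against 50 in HepG2 at a 68-base intron (ratio 2.31, interval 1.64 to 3.29), PRKDC, the catalytic subunit gene of the DNA-dependent protein kinase, had 97 in K562 against 52 in HepG2 at a 67-base one, and RPP21, a ribonuclease P subunit gene, had 65 in K562 against 21 in HepG2 at a 69-base one; none of these 3 passed 2-fold. With total-read scaling NDUFS7 and RPP21 did pass, at 1.63 and 2.04 on the log2 scale. TRAF4 had 28 in K562 against 56 in HepG2 and ANAPC2, of the anaphase-promoting complex, 24 in K562 against 38 in HepG2, and neither passed.

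The genes that recognise introns were read from all their junctions. Of 21 with enough reads, 3 were higher in K562 and 0 in HepG2, beside 16.8% of all 10956 genes higher in K562 and 21.9% higher in HepG2. These were SF3A2, with 1723 reads in K562 against 693 in HepG2 (2.47, interval 2.26 to 2.71), SF3B4, with 482 in K562 against 198 in HepG2 (2.42, interval 2.05 to 2.87), and LUC7L2, with 398 in K562 against 102 in HepG2 (3.88, interval 3.12 to 4.88). SF3A2 and SF3B4 encode parts of the U2 small nuclear ribonucleoprotein, which binds the branch point, and LUC7L2 a factor of the U1 particle at the donor. The median log2 ratio of the list was 0.40, against -0.01 for all genes. U2AF1, the small subunit of the acceptor-binding factor, had no unique read and 2322 mapped reads in K562 against 2000 in HepG2. Of 7 genes of the XBP1 splicing machinery, XBP1 alone was called, with 377 in K562 against 2259 in HepG2; its nuclease ERN1 had a ratio of 1.08 (0.835 to 1.39), and the ligase RTCB 840 in K562 against 1525 in HepG2.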

How the data were processed

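Per the submitters' processing notes, cutadapt, Bowtie2 and STAR 2.6.0 were used on GRCh38, but roles and settings were not given in the sources used here, nor was the annotation. The deposited values are raw counts of junction reads, with a column of uniquely mapped reads and one of all mapped reads, per the file headers. Both samples of a line share its table, so columns hold pooled reads.

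Unique reads of junctions of 1 gene were analysed with Python 3.11.15, scipy 1.17.1 and edgeR 4.0.16 in R 4.3.3. TMM factors came from gene sums of 10956 genes. Ratios had exact conditional 95% intervals with a floor of 3 reads, a minimum of 20 reads over both tables and a limit of 2-fold. Site shares needed 20 reads in each table. Junctions were matched to GENCODE release 29, and exon and intron letters came from its transcripts, no genome being used. The steps were tested on simulated data, and the closing section gives the alternatives tried (total reads or DESeq2 1.42.0 size factors, all mapped reads, other minimums, lengths and neighbouring junctions). The introns and lists were chosen with earlier results of these data known. Introns named are those with the most reads, the largest interval bounds in each direction, the largest site differences, the most reads under 50 bases, and genes of the lists; exceptions are stated where they occur. One intron that this rule names is not reported here.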

Additional observations from a re-analysis of the deposited data

Results flagged for a closer look

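Reads outside the unique single-gene set were examined because they carry signal at short introns. At 110 short introns with no unique read and 20 or more mapped reads, K562 had 81767 and HepG2 71601 mapped reads, none of which entered the comparisons. EEF1A1, a translation elongation factor gene, led with 17498 in K562 and 10630 in HepG2 at an 87-base intron, and HSP90B1, an endoplasmic reticulum chaperone gene, had 2895 in K562 and 7501 in HepG2. At 235 short introns listed for more than 1 gene, K562 had 5524 and HepG2 7949 unique reads, with PSMA2 and an overlapping gene at 725 in K562 and 514 in HepG2. At 797 gaps under 20 bases, K562 had 51 and HepG2 39 unique reads.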

How the results depend on the processing

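The ratio of read shares (1.19) was 1.20 with all mapped reads, 1.25 for introns of 20 to 80 bases, 1.14 for 20 to 100, 1.18 with junctions of several genes, 1.15 without the 10 introns with most reads and 1.05 with reads of genes that have a short intron as the total. Introns past 2-fold, 170 in K562 and 370 in HepG2, became 278 and 281 under total-read scaling, where 15.7% and 13.6% of all junctions passed. They became 88 and 171 at a minimum of 100 reads, and 56 and 142 for introns of 20 to 80 bases. A higher minimum or a shorter limit leaves fewer introns tested. Within-gene calls, 35 and 44, became 23 and 29 at 100 reads. Site shares counted, 5, became 9 at 10 points. Beside these changed counts, the share over all junctions is given for total-read scaling only. The 56-base HNRNPH1 intron reversed with all mapped reads, to 0.34 between the lines and 0.84 within the gene, and the cause was not tested. The 76-base SLC39A4 intron went to 0.64 (log2) against neighbouring junctions, a value set by the floor since K562 had 0 reads at both. The ratio for introns of 50 to 69 bases (0.722) became 1.04 without the ALDH3A2 and HNRNPH1 introns, a choice made after seeing the data. Those of the 100 named introns that had enough reads gave 844 values. Of these, 821 kept direction and side of the limit, 14 became weaker, 6 stronger and 3 reversed. The 821 include 163 values without a filter on low counts and 120 at a minimum of 100 reads. Both settings change only which introns are compared, so these values could not move. The alternative limited to introns with GT and AG ends was not run, since it needs a genome. No paired analysis was possible because each table pools its samples and carries no replicate numbers. With 1 pooled table per line, differences between lines cannot be told apart from differences between samples.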
